A study of Mus musculus with 15 samples.

Results

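Tau, encoded by Mapt, is a protein that binds and steadies the microtubules of axons. The amyloid precursor protein, encoded by App, is a transmembrane protein of neurons that is cut by secretases. Cleavage by the beta-secretase Bace1 and then by gamma-secretase releases amyloid-beta, and Aplp1 and Aplp2 encode close relatives of App that hold no amyloid-beta sequence. Apoe and Clu encode lipid-carrying proteins that astrocytes secrete in the brain and that bind amyloid-beta. These genes are known for their part in Alzheimer's disease and related tau disorders, and tau deposits are the hallmark of chronic traumatic encephalopathy.

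These 7 genes were chosen by name, and every one of their transcripts with a value was taken. The 7 genes had 13 listed transcripts, of 10370 transcripts in all, which belong to 7740 annotated genes. No synuclein gene is among them. The measurements were made on total RNA of dissected cortex from male C57BL/6 mice aged 12 weeks per the labels. They were 1 month past a course of high-frequency head impacts, called HF-HI (8 libraries), or past a Sham procedure (7 libraries). Per the study's methods, HF-HI mice were given repeated impacts to the head on consecutive days under isoflurane, and the Sham procedure used isoflurane but left the impacts out. The labels name no transgene or deletion in either group, so the transcripts are those of mouse tau and mouse App. The labels number the libraries within a group and do not say whether each came from a separate mouse, so p-values measure the spread between these libraries. The question was whether expression of these disease genes, or the division of each gene between its isoforms, differed 1 month after HF-HI.

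The deposited values were variance-stabilized (VSD) values on a log2 scale. They were inverted to normalized counts, which are the reads of a transcript divided by the size factor of its library. A gene sum is the sum of normalized counts over a gene's listed transcripts. The libraries held 5798810 to 10582858 reads in listed transcripts in Sham and 3496103 to 8666307 in HF-HI. A gene sum of the 7 genes rested on 422 reads in its lowest library (Bace1) and on up to 14347 (App). HF-HI replicate 2 stood apart from the other libraries on the first principal component, at 12.6 against -3.35 to 0.72. Markers of neurons (6 of 6 genes listed), astrocytes (8 of 8) and oligodendrocytes (6 of 6) were present, as in cortex. Ttr, a marker of choroid plexus, stood at 6589 to 8663 normalized counts in Sham replicates 1 and 2 and HF-HI replicates 2 and 5 and at no more than 176 in the other libraries, while 4 of 6 markers of that tissue (Kl, Folr1, Kcnj13 and Clic6) were not listed.

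Alternative exons separate the isoforms of several of these genes, and the exons that decide which form was measured are printed here. Sequences and positions are from GENCODE M21 on GRCm38 (mm10), on the strand of the gene, 5′ to 3′. App-201, the listed App transcript, skips the exon of the Kunitz protease inhibitor domain (chr16:85043576-85043743, 168 bases, minus strand) and the exon of 57 bases after it, so it encodes the form of App that is typical of neurons. Aplp2-201 holds the matching Kunitz exon (chr9:31167561-31167728, 168 bases, minus strand), while Aplp2-202 skips it and holds a short exon of 36 bases in place of it, farther on in the gene (chr9:31156190-31156225, minus strand). Bace1-202 lacks an exon of 102 bases that Bace1-201 and Bace1-204 hold (chr9:45858400-45858501, plus strand). Capitals mark the bases that the Kunitz exons of App and Aplp2 have in common at the same place, 114 of 168 (67.9%), and the other exons are in lower case throughout.
App Kunitz exon: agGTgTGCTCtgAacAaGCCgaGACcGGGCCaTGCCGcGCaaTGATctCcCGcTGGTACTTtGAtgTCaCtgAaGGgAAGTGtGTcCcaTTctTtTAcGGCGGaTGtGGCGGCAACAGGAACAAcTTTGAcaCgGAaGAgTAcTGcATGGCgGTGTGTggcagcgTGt
Aplp2 Kunitz exon: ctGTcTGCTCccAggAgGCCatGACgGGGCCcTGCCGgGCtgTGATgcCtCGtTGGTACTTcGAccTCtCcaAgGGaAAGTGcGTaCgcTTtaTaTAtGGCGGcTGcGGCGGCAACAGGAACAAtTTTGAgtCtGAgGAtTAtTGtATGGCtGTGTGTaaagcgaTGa
Aplp2 short exon: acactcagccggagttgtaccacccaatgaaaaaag
Bace1 skipped exon: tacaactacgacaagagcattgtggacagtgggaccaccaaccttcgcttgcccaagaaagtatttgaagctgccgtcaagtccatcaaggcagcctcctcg

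The 7 genes differed widely in level. Per kilobase of annotated transcript length, the order was Apoe, App, Clu, Aplp1, Aplp2, Mapt and Bace1, and each gene was above the next in 15 of 15 libraries. Apoe stood at 6268 ± 389 normalized counts per kilobase (SD, n = 7) in Sham and 6273 ± 495 (SD, n = 8) in HF-HI. App followed at 3059 ± 80.6 per kilobase in Sham and 3052 ± 339 in HF-HI. The tau gene was far lower, at 605 ± 19.7 per kilobase in Sham and 618 ± 24.1 in HF-HI. Bace1, the enzyme of the first cut, was the lowest of the 7 at 175 ± 6.75 and 175 ± 6.36 per kilobase. That Apoe came first in every library rests on Apoe-202, a transcript with no coding sequence that is described further on. With the 3 coding transcripts alone, Apoe stood at 3580 ± 205 per kilobase in Sham and 3286 ± 239 in HF-HI, above App in 12 of 15 libraries and below it in HF-HI replicates 2, 6 and 7. Effective lengths were not given in the sources used here, so this order holds for annotated lengths.

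P-values printed beside a difference are from exact two-sided permutation tests of the difference of group means over all allocations of group labels (6435 with all libraries, 3003 without a Sham library and 3432 without an HF-HI library), and adjusted p-values and SE are from limma, adjusted over the whole table. None of the 7 gene sums passed an unadjusted p of 0.05 between HF-HI and Sham in limma, against 9.94% of all 7740 gene sums. At the study's adjusted threshold of 0.1 none of them was called in limma, and 0 of the 7740 were. The study used another test at that threshold, a negative binomial model of raw counts per transcript. With it the study reported many genes as significantly different between these groups at this time. The 0 calls here hold for limma on sums of the listed transcripts, and they were not compared with the study's list. The log2 differences (HF-HI minus Sham) of the 7 gene sums lay between -0.03 and 0.03. Their median was -0.0149, against -0.0056 for all gene sums. Of the 7 differences 6 were negative, as were 4077 of the 7740. The median size of the difference was 0.0154 for the 7 genes and 0.0540 for all gene sums. All of the 7 but Bace1 had at least 3000 normalized counts, as had 337 of all gene sums. Counting error is smaller at such counts, and the size was not compared with that of genes of like level. The groups overlapped for each of the 7 genes, and they did not overlap for 0.181% of all gene sums. Where cells of a type differ in number, bulk RNA cannot tell that apart from a different amount of RNA per cell.

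**Figure D1:**
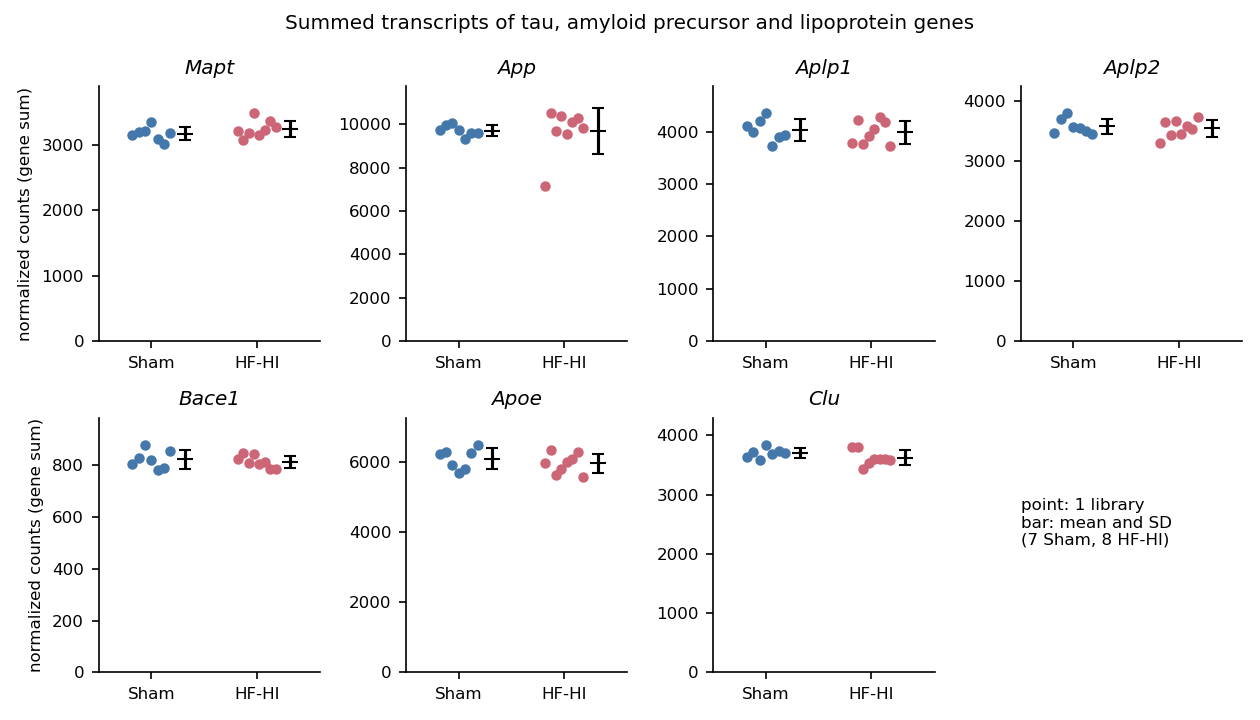
Gene sums in normalized counts (y axes, each from 0) for the 7 genes, with a point for each of the 7 Sham and 8 HF-HI libraries and a bar for the mean and SD. The groups overlap in every panel, and a single HF-HI library at 7166 lies below the other App values.

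Mapt, the tau gene, had a single listed transcript, whose lowest, median and highest values were 3023, 3192 and 3352 normalized counts in Sham and 3082, 3220.0 and 3487 in HF-HI. The HF-HI values spread over the Sham range and past its upper end, with 5 of 8 HF-HI libraries above the Sham median. The mean was 3177 ± 104 (SD, n = 7) in Sham and 3248 ± 127 (SD, n = 8) in HF-HI. The log2 difference was 0.03 (SE 0.0294, exact p = 0.259, limma adjusted p = 0.754), and its 95% interval ran from -2.06% to 6.73%. Sizes of the tau mRNA difference within that interval, 0 among them, could not be told apart with these libraries.

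App had 9305, 9739 and 10085 normalized counts as its lowest, median and highest Sham values, and 7166, 9965 and 10510.4 in HF-HI. The HF-HI group held both the lowest and the highest of the 15 libraries. HF-HI replicate 1, at 7166, lay apart from the other HF-HI libraries, which ran from 9558 to 10510.4. With all libraries the log2 difference was -0.01 (SE 0.0630, exact p = 0.975, limma adjusted p = 0.966), and without HF-HI replicate 1 it was 0.05 (exact p = 0.0723), so the sign of the App difference turned without that library. Of the alternatives that kept all libraries, quantile normalization turned it as well (0.010 on the VSD scale). The same library had the lowest summed oligodendrocyte markers (26104 normalized counts, against up to 32748) and the lowest summed striatal markers (2034, against up to 4163, 5 of 6 genes listed). The part of these marker levels in the App value was not tested. Its tau value, 3213, lay within the range of the other libraries.

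Aplp1, the brain-restricted relative of App, ranged from 3727 through a median of 3994 to 4359 normalized counts in Sham, and from 3727 through 3986 to 4283 in HF-HI. These ranges nearly coincided. The log2 difference was -0.01 (SE 0.0393, exact p = 0.710, limma adjusted p = 0.934), with a 95% interval from -6.55% to 4.82%. Aplp2, which is expressed in most tissues, had a gene sum of 3439, 3555 and 3792 in Sham and 3296, 3555 and 3729 in HF-HI as lowest, median and highest. The Aplp2 medians were equal to the digit printed, and the log2 difference was -0.01 (SE 0.0308, exact p = 0.657, limma adjusted p = 0.924).

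The beta-secretase gene Bace1 had a gene sum of 780.4, 818 and 878 normalized counts in Sham and 784, 809 and 845 in HF-HI. The HF-HI values lay inside the Sham range. Their log2 difference was -0.02 (SE 0.0323, exact p = 0.571, limma adjusted p = 0.913), with a 95% interval from -5.62% to 3.72%. This sum includes a transcript with no coding sequence, which is described further on. With protein-coding transcripts only the log2 difference was -0.11, and it did not pass an unadjusted 0.05 in limma. That value lies below the lower end of the interval of the whole sum, which is -0.083 on the log2 scale. The interval therefore does not bound the coding forms of Bace1.

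For the lipid carriers, the Apoe gene sum was 5668, 6224 and 6477 normalized counts in Sham and 5559.8, 5965 and 6319 in HF-HI. Of the HF-HI libraries 6 of 8 were below the Sham median, and the groups overlapped over most of their range. The log2 difference was -0.03 (SE 0.0360, exact p = 0.375, limma adjusted p = 0.800). Clu, which encodes the chaperone clusterin, had 3586, 3699 and 3840.1 in Sham and 3434, 3595 and 3809.7 in HF-HI, again with 6 of 8 HF-HI libraries below the Sham median. Its log2 difference was -0.03 (SE 0.0263, exact p = 0.173, limma adjusted p = 0.727), and the 95% interval ran from -5.85% to 1.65%. Clu had the smallest p of the 7 gene sums. Summed astrocyte markers lay between 47546 and 50123 normalized counts in the Sham libraries, against 47949 and 53224 in the HF-HI libraries. Summed microglial markers (5 of 7 listed, without Tmem119 and Aif1) lay between 1238 and 1402 in the Sham libraries and between 1135 and 1380 in the others. The part of cell numbers in the Apoe and Clu values was not tested.

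**Figure D2:**
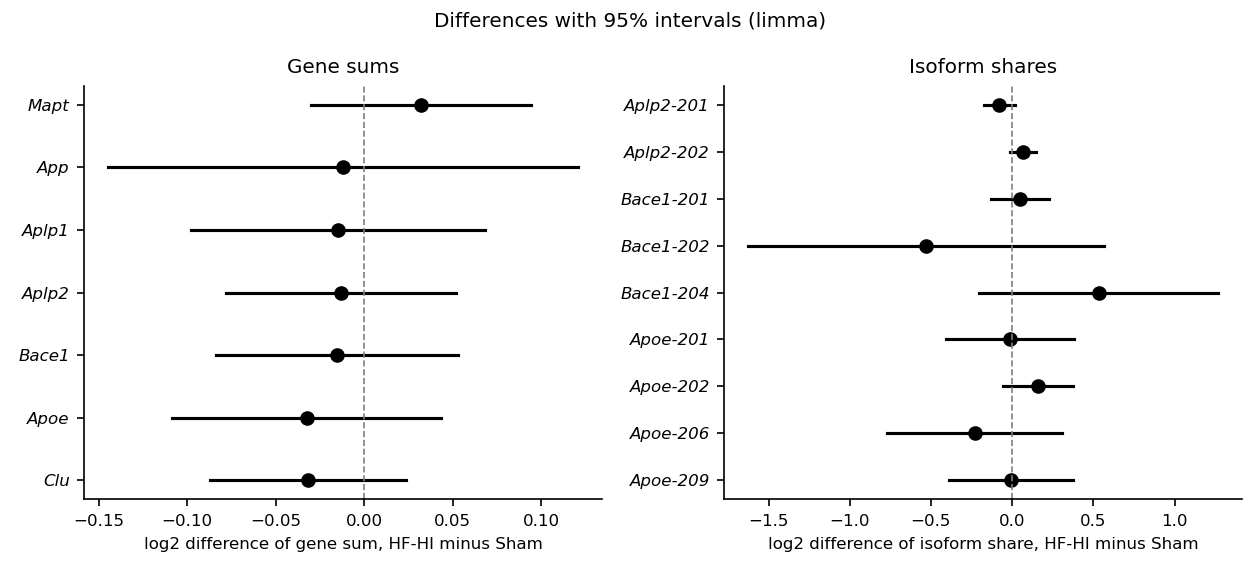
Log2 differences (x axes, HF-HI minus Sham) of the 7 gene sums and of the 9 isoform shares, as points with 95% intervals from limma over 7 Sham and 8 HF-HI libraries. Every interval includes 0, and the intervals of the Bace1-202 and Bace1-204 shares are the widest.

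Apoe, Bace1 and Aplp2 had several listed transcripts, and none of their isoforms was called. Over all 13 transcripts the unadjusted limma p lay between 0.149 and 0.873 and the adjusted between 0.692 and 0.979, against 8.83% of all 10370 transcripts at an unadjusted p under 0.05. The groups overlapped for each of the 13 transcripts, and did not for 0.154% of all transcripts. An isoform share is a transcript's part of its gene sum, tested as a log2 share. Of the 9 shares, 0 passed an unadjusted p of 0.05 in limma (p 0.101 to 0.974), against 6.69% of the 4140 transcripts of genes with several listed transcripts.

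**Figure D3:**
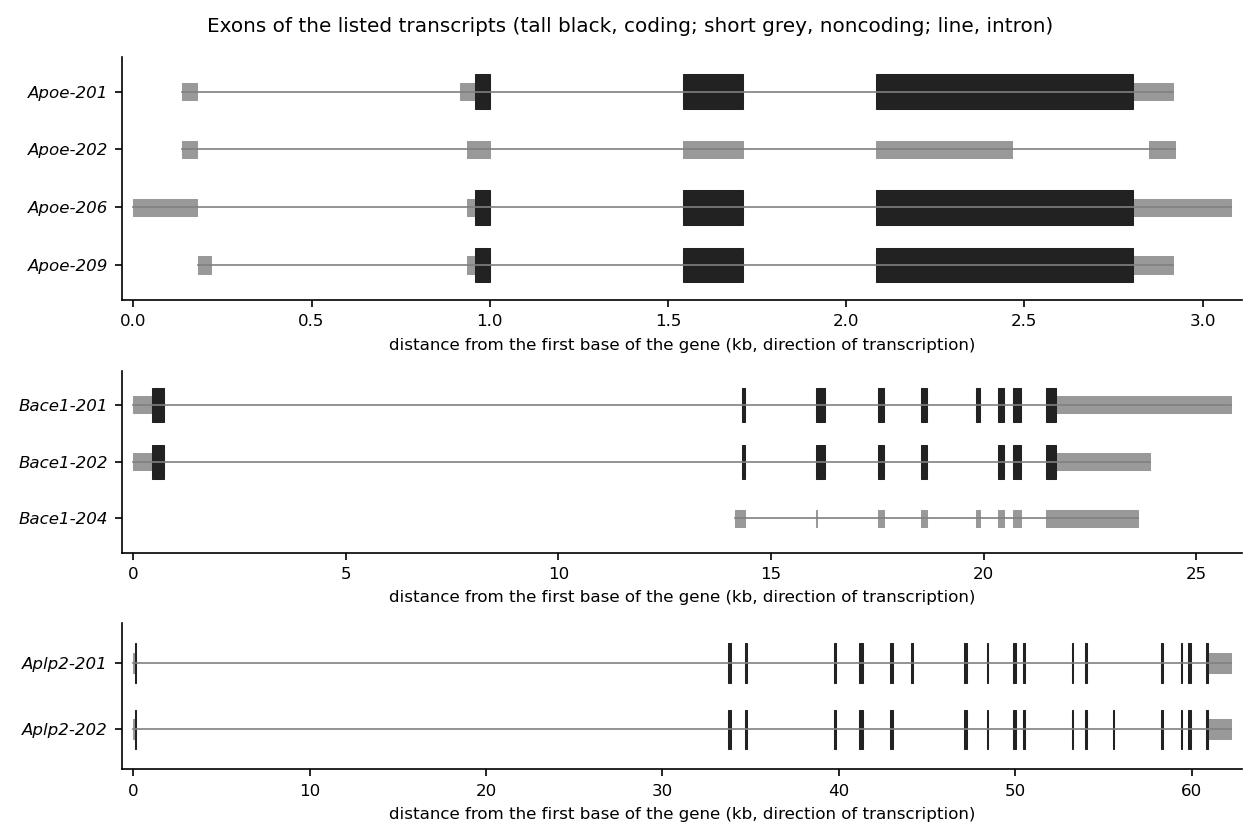
Exons of the listed Apoe, Bace1 and Aplp2 transcripts along each gene (x axis, kilobases from the first base of the gene in the direction of transcription), with coding exons tall and black and noncoding exons short and grey. Apoe-201, Apoe-206 and Apoe-209 share their coding exons, Apoe-202 and Bace1-204 hold no coding sequence, and the Aplp2 transcripts differ by a pair of small exons.

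Aplp2 divided almost evenly between the form with the Kunitz exon printed above and the form without it. Aplp2-201, with the Kunitz domain, had 1489.8, 1633 and 1859 normalized counts in Sham and 1371, 1556 and 1787 in HF-HI as lowest, median and highest. Aplp2-202, without it, had 1728, 1929 and 2028 in Sham and 1879.7, 1965 and 2133 in HF-HI. The ranges overlapped for both forms, with the HF-HI median below that of Sham for the Kunitz form and above it for the other. The Aplp2-201 share was 46.4% ± 3.0 (SD, n = 7) in Sham and 43.9% ± 2.44 (SD, n = 8) in HF-HI, and 7 of 8 HF-HI libraries were below the Sham median of 45.9%. The log2 difference of the share was -0.08 (SE 0.0452, exact p = 0.105, limma adjusted p = 0.762). Of the 15 libraries left out in turn, an unadjusted 0.05 in limma was passed only without Sham replicate 6 (-0.10, exact p = 0.0466) or without HF-HI replicate 8 (-0.10, exact p = 0.0490). The 168 bases of the Kunitz exon are the only ones of Aplp2-201 that are in no other listed transcript, and Aplp2-202 has 38 such bases.

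Bace1 was made up of a full-length coding form, Bace1-201 (57.7% of the gene sum on average), a coding form without the 102-base exon, Bace1-202 (21%), and Bace1-204 (21.3%), which is annotated as a transcript with a retained intron. Bace1-201 had 392, 468 and 539 normalized counts in Sham and 390.4, 482 and 552 in HF-HI, nearly the same range. Bace1-202 had 29.4, 222 and 284 in Sham and 33.2, 126 and 261 in HF-HI, and Bace1-204 had 44.1, 159 and 256 in Sham and 96.9, 199 and 256 in HF-HI. These low isoforms moved against each other: 6 of 8 HF-HI libraries were below the Sham median of Bace1-202, and 7 of 8 were above the Sham median of Bace1-204. The mean of Bace1-202 differed by -31.0% in HF-HI (206 ± 85.7 in Sham against 142 ± 82.5), which did not pass the test (VSD difference -0.12, SE 0.0854, exact p = 0.228, limma adjusted p = 0.725). The mean of Bace1-204 was 29.6% higher (149.6 ± 74.9 against 194 ± 51.6), which did not pass either (VSD difference 0.09, SE 0.0608, exact p = 0.180, limma adjusted p = 0.692). Sham replicate 1, at 29.4 for Bace1-202, was the exception in its group, where the others lay between 189 and 284. Without it the VSD difference of Bace1-202 was -0.18 (exact p = 0.0316), so whether that isoform passed an unadjusted 0.05 depended on that library.

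Across the 15 libraries, Bace1-202 and Bace1-204 had a Spearman rho of -0.89, and 2.38% of the 4081 pairs of transcripts of the same gene had a lower one. The median rho of those pairs was -0.23, and 70.1% of them were negative. Of the bases of Bace1-202, 0 are in no other listed transcript, and Bace1-204 has 165 such bases. These counts leave out splice junctions, and Bace1-202 alone joins the exons on either side of the exon that it skips. The counts per transcript were estimates by eXpress, which divides reads that fit several transcripts, and a read in shared exons counted for an isoform is not counted for its neighbors. On the opposite strand, Bace1-201, Bace1-202 and Bace1-204 overlap the antisense gene Gm16536 and the unverified gene Gm49338, and Bace1-201 alone overlaps Rnf214, by 975 exonic bases. App-201 overlaps the antisense genes Gm10791 and Gm49227. Whether the counting used strand was not given in the sources used here.

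**Figure D4:**
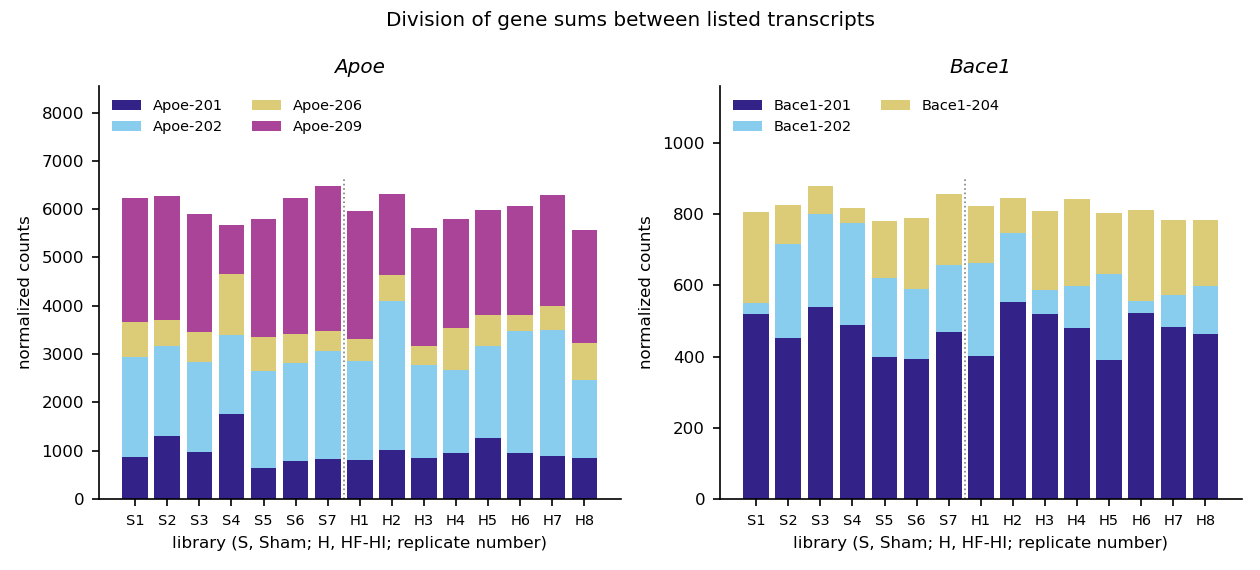
Normalized counts (y axes) of the listed Apoe and Bace1 transcripts, stacked for each of the 15 libraries (x axes, S for Sham and H for HF-HI with the replicate number). The height of the stacks is nearly even while its division shifts, as in Sham replicate 4 for Apoe and in Sham replicate 1 for Bace1.

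Apoe had 4 listed transcripts. Apoe-201, Apoe-206 and Apoe-209 encode the same coding sequence of 933 bases. Their first exons differ, the second exon of Apoe-201 starts earlier, and the last exon of Apoe-206 ends later. Apoe-202 is annotated as a processed transcript with no coding sequence. Apoe-209 was the most abundant coding form, with 1019, 2556 and 3006 normalized counts in Sham and 1672, 2272 and 2633 in HF-HI. Apoe-202 had 1628, 2006 and 2230.4 in Sham and 1627, 1973 and 3068 in HF-HI. Apoe-201 had 647, 862 and 1762 in Sham and 816, 916 and 1261 in HF-HI, and Apoe-206 had 413, 620.0 and 1259 in Sham and 339, 530.0 and 863 in HF-HI. Sham replicate 4 was at an end of the Sham range for all 4: it was highest for Apoe-201 and Apoe-206 and lowest for Apoe-202 and Apoe-209. Its gene sum of 5668 was the lowest of the Sham group and within the HF-HI range. Apoe-209 differed by -0.04 on the VSD scale (SE 0.105, exact p = 0.797) with all libraries and by -0.15 (exact p = 0.00999) without Sham replicate 4. Apoe-201, Apoe-202 and Apoe-206 had exact p-values of 0.750, 0.349 and 0.320 and also overlapped between the groups. Few bases set these isoforms apart: 19 bases of Apoe-201, 0 of Apoe-202, 37 of Apoe-209 and 294 of Apoe-206 are in no other listed transcript. This count leaves out splice junctions, and Apoe-202 alone splices out a stretch of the last exon of the other forms.

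The 3 coding transcripts of Apoe summed without Apoe-202 gave another value than the whole gene sum. Their sum was 3790.3, 4146 and 4403 normalized counts in Sham and 3251, 3807 and 4078 in HF-HI as lowest, median and highest. The ranges overlapped, and 8 of 8 HF-HI libraries were below the Sham median. The mean was 4123 ± 195 (SD, n = 7) in Sham and 3771 ± 285 (SD, n = 8) in HF-HI, a log2 difference of -0.13 (SE 0.0457, exact p = 0.0163, limma adjusted p = 0.357). Of the sums of protein-coding transcripts of all 7526 genes, 9.90% passed an unadjusted 0.05 in the same fit, 4.62% in the direction of lower in HF-HI, and 0 passed the adjusted threshold. Without each of the 15 libraries in turn the exact p of the coding sum of Apoe was 0.00766 to 0.0376. With the replicate number as a block the difference was -0.14 (unadjusted limma p of 0.0319). With the log2 size factor, a measure of depth, as a covariate the difference was -0.11 and no longer passed an unadjusted 0.05 in limma (0.0653). The lowest library of this sum was HF-HI replicate 2, in which Apoe-202 was highest, at 3068. Of the bases of Apoe-202, 0 are in no other listed transcript, though it holds a splice junction of its own. Reads away from that junction fit other forms too. The coding sum therefore depends on how eXpress divided reads in shared exons, and leaving out libraries does not test that division. The difference between the whole and the coding sum lies in Apoe-202, whose share of the gene sum was 32.2% ± 2.27 in Sham and 36.3% ± 6.86 in HF-HI (log2 difference of the share 0.16, SE 0.10, exact p = 0.162, limma adjusted p = 0.781).

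The isoforms of Bace1 and Apoe varied far more than their gene sums, while Aplp2-202 varied only a little more than the Aplp2 sum. The coefficient of variation within groups (CV, the SD pooled over both groups as a share of the mean of the 15 libraries) was 48.8% for Bace1-202, 36.6% for Bace1-204 and 12.0% for Bace1-201, while that of the Bace1 gene sum was 3.61%. A count of that size alone gives 3.59% through counting error, so the Bace1 sum varied between libraries by little more than its counting error. For Apoe the transcripts had CVs of 19% to 36.3% and the sum 4.79%, and for Aplp2 the transcripts had 8.57% and 4.6% and the sum 3.85%. The same held for most genes: the sum varied less than each of its transcripts in 93.4% of the 1639 genes with several listed transcripts, where the median CV was 20.5% for transcripts and 6.51% for sums.

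**Figure D5:**
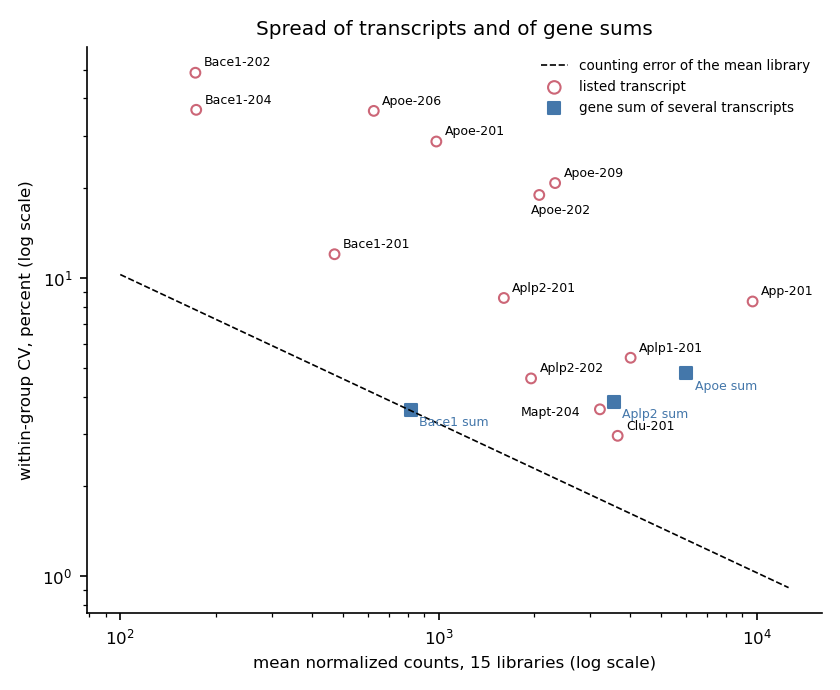
Within-group coefficient of variation in percent (y axis, log scale) against mean normalized counts over 15 libraries (x axis, log scale) for the 13 transcripts (open circles) and the 3 sums of several transcripts (squares), with the counting error of an average library as a dashed line. The sums of Bace1, Aplp2 and Apoe lie below each of their transcripts, and the Bace1 sum lies on the counting line.

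Against gene sums of any level, 6 of the 7 genes had a CV below that of 83.3% of them or more, and among gene sums of like level 3 (Clu, Mapt and Aplp2) had a CV below that of most. The CV of Clu was 2.95% and lower than that of 99.1% of all 7740 gene sums. Bace1 was lower than 97.1%, Mapt (3.63%) lower than 97.0%, Aplp2 lower than 95.9%, Apoe lower than 89.1% and Aplp1 (5.40%) lower than 83.3%. App, at 8.34%, was lower than 50.8%, with HF-HI replicate 1 included. Counting error is smaller at high counts, so genes of like level are the closer comparison. Among the 337 gene sums of at least 3000 normalized counts, Clu was lower than 89.9%, Mapt lower than 77.4%, Aplp2 lower than 71.8%, Apoe lower than 47.2%, Aplp1 lower than 37.7% and App lower than 11.9%. Bace1 lies under that level and has no such comparison.

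Over the 15 libraries, App went most closely with Aplp2 among the 7 genes (Spearman rho 0.68, log2 gene sums), then with Aplp1 (0.53). Apoe and Clu had a rho of 0.44 with each other, and Mapt had -0.35 with Apoe and -0.36 with Clu. All values come from the same libraries and share their size factors, so these figures describe these libraries. For each of the 7 the 3 highest rhos among all gene sums were taken, and no background was computed for such a choice. The genes whose pattern was most like each of the 7 were Astn1, Mir124a-1hg and Phf24 for Mapt (rho 0.83 to 0.86), Mchr1, Phldb1 and Wdr18 for App (0.83 to 0.92) and Gtf3c1, Sdc3 and Tecpr2 for Aplp1 (0.85 to 0.92). They were Gm24497, Lbr and Fndc3a for Aplp2 (0.79 to 0.94), Clta, Ing5 and Oplah for Bace1 (0.82 to 0.87), Tmem18, Stoml1 and S1pr5 for Apoe (0.84 to 0.87) and Lin7c, Sel1l and Ssr3 for Clu (0.76 to 0.78). Ttr and Enpp2, the listed choroid plexus markers, had a summed level with a rho of 0.61 with the Apoe gene sum and -0.50 with Mapt. Their sum did not fall below 1972 normalized counts in any library, while Ttr was no more than 176 in most libraries. Enpp2 therefore made up most of the sum in those libraries. No rho is given for Ttr alone, so these values cannot be read as a measure of choroid plexus content. Summed astrocyte markers had a rho of -0.58 with Apoe, -0.63 with Clu and 0.61 with Mapt. Summed neuron markers had a rho of -0.60 with Clu and 0.48 with Mapt, and summed endothelial markers (3 of 4 listed) had -0.58 with Apoe and 0.40 with Mapt. The part of these marker levels in the values of the 7 genes was not tested.

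Around these genes, 61 genes that cut, carry or modify App, amyloid-beta, apolipoproteins or tau were looked up, and 54 of them had 80 listed transcripts. Of these transcripts 8 (10%) passed an unadjusted 0.05 in limma, 6 higher and 2 lower in HF-HI, against 8.83% of all transcripts (4.94% higher and 3.90% lower). None passed the adjusted threshold. That share is near the background and is given as a description.

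The gamma-secretase genes encode the complex that makes the second cut of App. They had 5 listed transcripts, 0 of them called (unadjusted limma p 0.170 to 0.912). The difference was negative for 5 of 5 (median -0.03 on the VSD scale), and for 5342 of all 10370 transcripts. Its median size was 0.0264 for these 5 and 0.0226 for all transcripts. Of the other secretases 1 of 3 transcripts was called. Adam10, the main alpha-secretase, which cuts App within the amyloid-beta sequence, had 658, 745 and 783 normalized counts in Sham and 724, 795 and 846 in HF-HI (mean 6.84% higher, exact p = 0.0362, limma adjusted p = 0.561). It was no longer called in 10 of the 15 fits that left out a library.

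Of 14 transcripts of App adaptors and sorting proteins 2 were called. Apbb1-201, which encodes Fe65, a protein that binds the tail of App, had 1818, 2055 and 2176 in Sham and 2013, 2169.9 and 2455 in HF-HI (8.37% higher, exact p = 0.0214, limma adjusted p = 0.487). Bin1-202, of a membrane-bending protein, was 25.4% higher in the mean (310.2 ± 66.4 against 389 ± 73.5, exact p = 0.0421, limma adjusted p = 0.525), with 8 of 8 HF-HI libraries above the Sham median. The gene sum of Bin1, which includes Bin1-201, differed by 0.07 on the log2 scale (exact p = 0.183).

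Of 7 transcripts of lipoprotein receptors and transporters, Lrp8-202 was called. Lrp8 encodes the ApoER2 receptor, which binds apolipoprotein E and reelin. It had 355, 405 and 451 normalized counts in Sham and 402, 462 and 595 in HF-HI, so that the upper HF-HI libraries lay past the Sham range (17.1% higher, exact p = 0.0214, limma adjusted p = 0.476). The limma call was lost in 0 of 15 fits without a library and was lost with the log2 size factor as a covariate (unadjusted 0.166). Of the listed transcripts of amyloid-beta degrading enzymes 0 of 2 were called, with VSD differences of -0.01 and 0.02.

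Among 26 transcripts of tau kinases and phosphatases 2 were higher and 2 lower. Ppp2cb-201 and Ppp2ca-201 encode the catalytic subunits of the phosphatase PP2A, which removes phosphate from tau, and they went opposite ways. Ppp2ca-201 had 2716, 2893 and 2987 in Sham and 2626, 2761 and 2889 in HF-HI (mean difference -4.77%, exact p = 0.0172, limma adjusted p = 0.506), with 8 of 8 HF-HI libraries below the Sham median. Ppp2cb-201, at lower counts, had 909.9, 963 and 1056 in Sham and 982, 1009 and 1137 in HF-HI (5.81% higher, exact p = 0.0311, limma adjusted p = 0.561). The kinase transcript Ttbk2-201 was 10.3% higher (exact p = 0.0261, limma adjusted p = 0.525), while the Ttbk2 gene sum over 3 listed transcripts differed by -0.02 (exact p = 0.504). Fyn-202, of a kinase that phosphorylates tau on tyrosine, had a mean difference of -9.92% (exact p = 0.0356, limma adjusted p = 0.531). Of 23 transcripts of other microtubule-associated proteins 0 were called. As gene sums, 8 of the 54 genes (14.8%) passed an unadjusted 0.05, against 9.94% of all gene sums, and 0 passed the adjusted threshold. Of the 8, Lrp8, Apbb1, Adam10, Ppp2cb and Map6 were higher and Fyn, Ppp2ca and Ppp2r2b lower. Leaving out 1 library ended the call of Apbb1-201 in 1 of 15 fits (without Sham replicate 5), of Ppp2ca-201 in 2 (without Sham replicate 1 or 6), of Bin1-202 and Ttbk2-201 in 4 each, of Fyn-202 in 6 and of Ppp2cb-201 in 11. Of the 8 called transcripts, 7 were no longer called with the log2 size factor as a covariate, and Bin1-202 was the exception (unadjusted 0.0452). With the replicate block 4 of the 8 were no longer called (Bin1-202, Ttbk2-201, Adam10-201 and Ppp2cb-201). With voom on recovered reads 3 were not (Fyn-202, Adam10-201 and Ppp2cb-201), and with median-centred libraries 2 were not (Adam10-201 and Ppp2cb-201).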

How the data were processed

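Cortical RNA of 7 Sham and 8 HF-HI libraries was measured by RNA sequencing. Per the study's methods, the authors aligned reads to mm10 with STAR, estimated counts per transcript with eXpress and normalized them with DESeq2. The annotation was not given in the sources used here. The deposited VSD values are on a log2 scale. Inverted from the VSD of a count of 0 (9.81), 100% of values were whole reads within 0.1 reads, which gave the size factors. The scale compresses low counts, and the lowest mean of a listed transcript was 107.9 normalized counts.

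Transcripts were matched to GENCODE M21 (10241 of 10370). limma 3.58.1 (R 4.3.3) with eBayes trend, two-sided, HF-HI minus Sham, was fitted to VSD values, to log2 gene sums with a pseudocount of 1, and to log2 isoform shares. P-values were adjusted over each whole table by Benjamini-Hochberg. Single values were also compared by an exact two-sided permutation test over all allocations of group labels. The code was tested on simulated data. The members and lists were chosen with earlier results of these data known. Named genes were the 7 members, related genes with a transcript at an unadjusted p under 0.05 (up to 12), and the 3 genes with the highest rho to each member. Alternatives changed the prior, scaling, unit (voom), filter, pseudocount, depth covariate, replicate block and libraries included. Those of the coding sum of Apoe, and the permutation tests, were chosen after seeing the data. A further exon sequence is not reported here.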

Additional observations from a re-analysis of the deposited data

Results flagged for a closer look

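For the 7 genes, 32 groups of Sham or HF-HI values were tested for a library apart from the rest. In 5 of them, 1 library lay farther from the nearest other than Dixon's 95% limit allows for its range. Chance gives that in about 1 of 20 groups, and it held for 6.67% of all transcripts in Sham and 7.35% of all gene sums in HF-HI. The 32 groups include sums with their own transcripts and are not independent, so the 5 are given as a description. The App transcript App-201 was 7166 normalized counts in HF-HI replicate 1, while the other 7 HF-HI libraries lay between 9558 and 10510.4. That library passed the limit in 0.478% of all gene sums, of 7.35% of gene sums with any HF-HI library past it. Bace1-202 was 29.4 in Sham replicate 1, against 189 to 284 in the other Sham libraries. Sham replicate 4 passed the limit for 2 Apoe transcripts: Apoe-206 was 1259, against 413 to 728, and Apoe-209 was 1019, against 2433 to 3006. That library passed the limit in 0.984% of all transcripts. Apoe-201 was 1261 in HF-HI replicate 5, against 816 to 1022. For Bace1 and Apoe the gene sums of these libraries were not past the limit.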

How the results depend on the processing

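Of 607 refits of a member transcript, gene sum or share under an alternative, 9 passed an unadjusted 0.05 in limma. Further refits of the coding sum of Apoe are given above and are not among the 607. The count of called member transcripts was 0 under each alternative to the main fit except the replicate block, where it was 1 (Apoe-206, -0.13, unadjusted limma p of 0.0331), and leaving out 1 library gave 0 to 1. Member gene sums called were 0 except with protein-coding transcripts only, where 1 (Apoe) passed, and 0 to 0 without a library. Member shares called were 0 to 2 without a library. The Bace1-202 share was -0.95 (exact p = 0.0360) without Sham replicate 1, and the Aplp2-202 share 0.08 (exact p = 0.0443) without Sham replicate 6.

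With the log2 size factor as a covariate, 533 of 10370 transcripts, 449 of 7740 gene sums and 2 of 80 related transcripts were called, against 916, 769 and 8. Only transcripts with a mean of at least 300 normalized counts gave 525 of 5438. Leaving out 1 library gave 748 to 987 transcripts, 618 to 850 gene sums and 4 to 10 related transcripts (4 without Sham replicate 2 or HF-HI replicate 2, and 5 without Sham replicate 1 or HF-HI replicate 7). The cause was not tested. Signs turned for App-201 with quantile normalization (0.010), and with the depth covariate for Bace1-201 (-0.022) and the shares of Bace1-201 (-0.015), Apoe-201 (0.011) and Apoe-209 (0.015). Without 1 library, ranges that crossed 0 were -0.024 to 0.042 (App-201), -0.076 to 0.039 (Apoe-201), -0.15 to 0.0018 (Apoe-209), -0.024 to 0.0030 (Aplp1-201) and -0.0021 to 0.024 (Bace1-201). For gene sums they were -0.030 to 0.049 (App), -0.034 to 0.0039 (Aplp1), -0.024 to 0.0017 (Aplp2) and -0.028 to 0.00077 (Bace1), and for shares -0.10 to 0.14 (Apoe-201) and -0.18 to 0.067 (Apoe-209).

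Same-numbered Sham and HF-HI libraries correlated between -0.138 and 0.0905 in their deviations from the group means. Differently numbered libraries were not compared, so these values cannot decide whether the numbers pair libraries. With the replicate block 891 transcripts, 748 gene sums and 7 related transcripts were called, 4 of the 8 of the main analysis and 3 others. Only HF-HI has a replicate 8, so the block takes up that library. The differences with the block equal those without HF-HI replicate 8. The planned isoform shares of Mapt and App were not run, since 1 transcript of each gene is listed. Depth was higher in Sham (size factors 0.818 to 1.47, against 0.501 to 1.22), so depth and group are partly confounded.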
